A study of Rattus norvegicus with 6 samples.

Results

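Interferon-stimulated genes are genes whose transcription is raised by interferons, and 39 of them were listed here by gene symbol. Of these, 38 were found in the deposited table of 17833 genes, and all 38 passed the filter that a gene needed to be tested, a mean FPKM (fragments per unit of gene length and relative to the library total) of at least 0.1 over the 6 libraries, which 15150 genes passed in all. Samd9l was not analysed here. The pulmonary veins (PVs) of the right upper lobe were profiled by bulk RNA-seq in 3 rats with bilateral pulmonary vein banding (BPVB) and in 3 rats with a sham operation. All 6 rats were wild type and of the strain labelled SD, were operated on at postnatal day 1 and were sampled at postnatal day 21. The sham operation included opening of the chest under hypothermia but no constriction, so both groups shared the surgery and the anaesthesia. Banding was a mechanical narrowing of the veins, no gene was altered by the labels, and they name no virus or interferon treatment in either group. The comparison asked which interferon-stimulated genes differed between banded and sham PVs.

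Type I interferons bind the receptor made of IFNAR1 and IFNAR2, whose kinases JAK1 and TYK2 activate STAT factors. STAT2 acts together with IRF9 in the factor ISGF3, which binds the interferon-stimulated response element (ISRE) near the start of its target genes. Interferon-gamma signals through IFNGR1, IFNGR2, JAK1 and JAK2, and its target genes carry the gamma-activated site (GAS). Many of the induced proteins act against viruses, and others are the receptors' own signal carriers and brakes, so the pathway contains its own feedback.

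Promoter windows of 4 members are shown because they hold the letters of an ISRE in genes that moved in opposite directions: Rsad2 and Ifit3, which were lower in the BPVB group, and Xaf1 and Ifitm3, which were higher. Each window is the 250 bases before the annotated start of the gene in RefSeq (GRCr8), read on the strand of the gene, with matches to GAAANNGAA on either strand in capitals. The windows are chr6:48788121-48788370 on the minus strand for Rsad2, chr1:241527076-241527325 on the plus strand for Ifit3, chr10:57415685-57415934 on the plus strand for Xaf1 and chr1:205541759-205542008 on the minus strand for Ifitm3.
Rsad2: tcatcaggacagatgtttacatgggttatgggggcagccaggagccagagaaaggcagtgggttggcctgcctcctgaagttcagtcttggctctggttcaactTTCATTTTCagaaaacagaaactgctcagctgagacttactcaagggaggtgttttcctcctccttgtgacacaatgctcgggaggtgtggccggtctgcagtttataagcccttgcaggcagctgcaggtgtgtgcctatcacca
Ifit3: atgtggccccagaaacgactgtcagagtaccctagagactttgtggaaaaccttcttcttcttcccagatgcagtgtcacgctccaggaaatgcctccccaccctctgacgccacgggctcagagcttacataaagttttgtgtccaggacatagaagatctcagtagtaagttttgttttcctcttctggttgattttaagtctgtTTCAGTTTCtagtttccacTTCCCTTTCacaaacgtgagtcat
Xaf1: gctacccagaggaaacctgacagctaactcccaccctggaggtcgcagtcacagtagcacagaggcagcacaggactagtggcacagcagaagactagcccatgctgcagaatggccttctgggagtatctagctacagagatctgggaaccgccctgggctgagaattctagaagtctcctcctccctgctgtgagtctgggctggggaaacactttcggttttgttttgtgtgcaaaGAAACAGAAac
Ifitm3: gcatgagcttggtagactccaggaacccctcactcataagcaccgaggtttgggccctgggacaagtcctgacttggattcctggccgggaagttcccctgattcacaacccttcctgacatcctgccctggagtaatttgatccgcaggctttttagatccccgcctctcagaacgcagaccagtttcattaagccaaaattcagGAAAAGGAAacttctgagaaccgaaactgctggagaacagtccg
The first base of the match lay 146 bases before the start of Rsad2, 44 before that of Ifitm3 and 11 before that of Xaf1. Ifit3 held a pair of matches, at 43 and 24 bases before its start. Windows were found for 29 of the 38 members and not for Ifit1, Ifit2, Usp18, Ifitm1, Mx2, Isg15, Zbp1, Dhx58 and Rtp4.

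An ISRE-like match was present in 20 of the 29 member windows (69.0%), against 6.44% of the 12200 windows of tested genes and 7.99% of all 27457 RefSeq windows, 1 per gene. The match was found in 3 of the 5 windows of members that were higher in the BPVB group, 4 of the 5 that were lower and 13 of the 19 that did not pass the test. A GAS-like match, TTCNNNGAA, was present in 8 of the 29 windows (27.6%), against 6.19% of the windows of tested genes and 7.52% of all RefSeq windows. The members had 8 GAS-like matches, of which 1 overlapped an ISRE-like match. A match describes the letters of the window and not the binding of a factor.

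The interferon-stimulated genes did not move as a block. In the BPVB group, 6 members were higher (15.8%; 17.2% of all tested genes were higher) and 9 were lower (23.7%; 14.3% of all tested genes were lower), each with an adjusted p under 0.05 (limma on log2(FPKM + 0.5), Benjamini-Hochberg adjustment over all tested genes), and 23 did not pass the test. The median log2 fold change of the members was 0.02, the same as over all tested genes, with 19 members above 0 and 19 below. Counting a gene as differentially expressed (DEG) at the study's thresholds, where the absolute log2 fold change must also exceed 1, there were 2 members, Ifit1 and Usp18, both lower, and 3.27% of all tested genes were DEGs. FPKM in the 3 BPVB libraries lay wholly outside the range of the 3 sham libraries for 22 members (57.9%; 45.6% of all tested genes), of which 13 were higher and 9 lower. In these bulk samples, fewer cells of a type and less RNA per cell cannot be told apart.

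**Figure D1:**
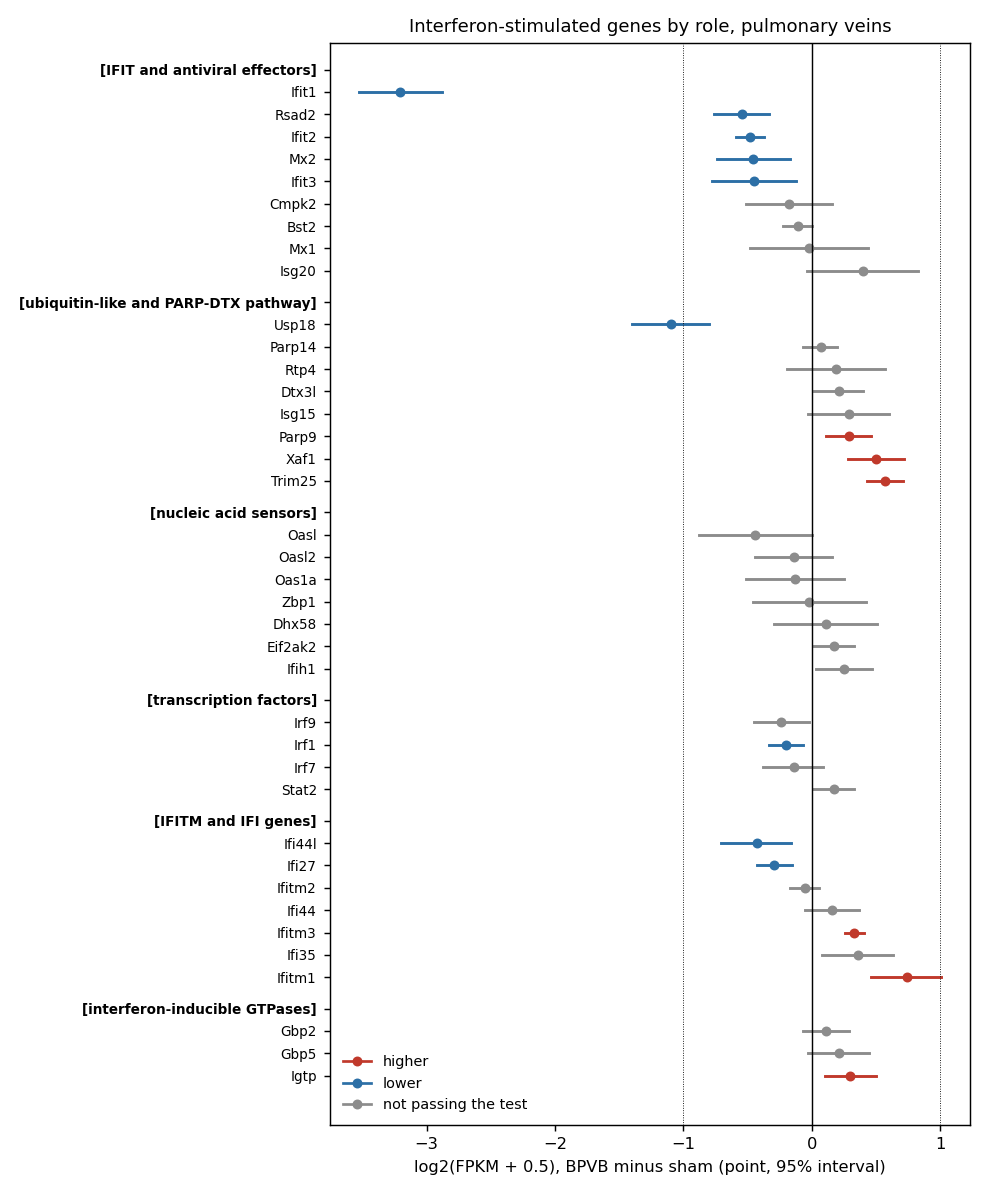
Difference in log2(FPKM + 0.5) between BPVB and sham PVs for the 38 interferon-stimulated genes, grouped by role, with the 95% interval of the fit as a bar and dotted lines at 1 and -1. Red points are genes with an adjusted p under 0.05 that were higher in the BPVB group (6), blue points those that were lower (9) and grey points the other 23. In the group of IFIT and antiviral effectors, which does not hold the IFITM genes, all 5 that passed the test lie to the left of 0.

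The levels of the members spanned a wide range. Per length, 4 members held most of the signal in the veins, with a mean over the 6 libraries of 421 FPKM for Ifitm3, 278 for Ifi27, 105 for Bst2 and 97.7 for Ifitm2. The least abundant was Zbp1 (0.142 FPKM, 0 to 16 fragments in a library). Summed over the 38 members, BPVB libraries reached 1156, 1224 and 1224 FPKM and sham libraries 1143, 1162 and 1147 FPKM, so the groups overlapped. Without these 4 members, the sums were 286, 288 and 277 in the BPVB group and 271, 269 and 252 in the sham group. These groups did not overlap, but the separation rested on Ifitm1, without which the sums were 228, 228 and 220 against 230.1, 231 and 225. No single library carried the members: within the BPVB group, libraries 1, 2 and 3 had the highest value for 15, 16 and 7 members, and within the sham group for 10, 16 and 12.

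**Figure D2:**
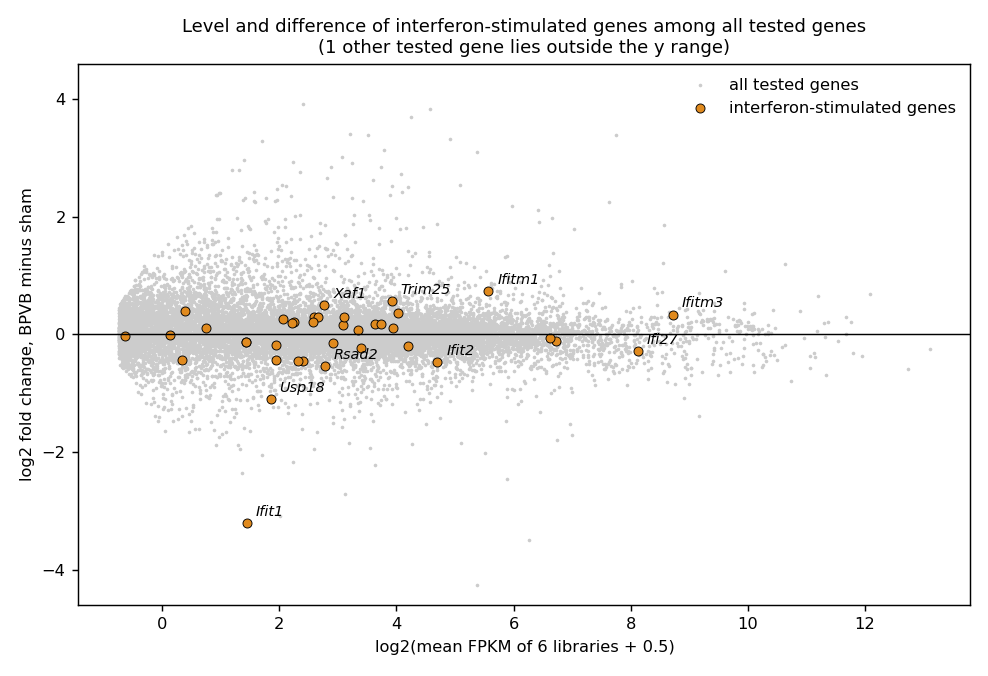
Level of each tested gene, as the log2 of its mean FPKM + 0.5 over 6 libraries (x axis), against its log2 fold change between BPVB and sham PVs (y axis). Grey dots are the 15150 tested genes, except 1 that lies outside the y range, and orange points are the 38 interferon-stimulated genes, which lie between -3.21 (Ifit1) and 0.74 (Ifitm1) and at both low and high levels.

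The group of IFIT genes and other antiviral effectors included 5 of the 9 lower members. Of 9 tested in this group, 5 fell (55.6%, against 14.3% of all tested genes), none rose (against 17.2%) and 4 did not pass the test, with a median log2 fold change of -0.45. The group does not hold every member that acts on viruses. The IFITM genes were placed in another group, and Ifitm1 and Ifitm3 were higher (log2 fold changes 0.74 and 0.33). Ifit1, which binds viral RNA that lacks the cap methylation of host mRNA, had 0, 0.0928 and 0 FPKM in the BPVB group and 4.91, 3.82 and 4.49 in the sham group. These values stood for 0, 5 and 0 fragments against 241, 185 and 221, where a count of 0 allows up to 3 fragments. Ifit1 was thus close to undetected in every banded vein and present in every sham vein. The ratio of sham to BPVB fragments, scaled by library totals, was 150.3 (95% exact interval 64.1 to 464, counting error only). Its fitted log2 fold change was -3.21 (SE 0.14, limma adjusted p = 7.1e-07, n = 3 per group), and since both banded zeros enter through the pseudocount, it ranged from -7.84 to -2.39 over 16 other settings, with the call unchanged in each.

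The other members of the IFIT family changed far less. Ifit2 had 20.4, 21.6 and 21.5 FPKM in the BPVB group and 29.9, 28.6 and 30.6 in the sham group, without overlap and with little spread in either group (log2 fold change -0.48, SE 0.047, limma adjusted p = 9.3e-05). Ifit3, a partner that stabilizes the IFIT1 complex, had 3.56, 4.88 and 3.46 FPKM against 4.92, 5.26 and 6.54. Its highest banded library and lowest sham library nearly touched, and its fall of 0.45 on the log2 scale (SE 0.15, limma adjusted p = 0.045) did not pass the test without BPVB replicate 1 or 3 or without sham replicate 1, 2 or 3 (adjusted p from 0.05 to 0.14). By RefSeq gene order, Ifit2, Ifit3, Ifit1bl and Ifit1 are direct neighbours on chromosome 1. Ifit1bl, a related gene outside the list, had 1.05, 0.847 and 0.764 FPKM in the BPVB group and 0.891, 0.678 and 1.06 in the sham group, and its difference of 0.02 had an interval that included 0. The 4 neighbours thus differed in size of change from none detected to a near loss of signal. Reads shared by near-identical copies can be split between genes by the counting, so values of IFIT, IFITM, OAS, GBP and MX family members carry that uncertainty.

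Rsad2 encodes viperin, a radical SAM enzyme that makes a chain-terminating nucleotide. It had 4.98, 5.12 and 5.09 FPKM in the BPVB group and 7.22, 8.71 and 6.99 in the sham group (log2 fold change -0.54, SE 0.094, limma adjusted p = 0.0024), and the groups did not overlap. Cmpk2, a mitochondrial nucleotide kinase that lies next to Rsad2 on chromosome 6, had means of 3.11 ± 0.46 and 3.59 ± 0.70 FPKM (SD, n = 3 per group) and a log2 difference of -0.18 with an interval from -0.51 to 0.16. Mx2, a dynamin-like GTPase, had 3.29, 4.55 and 3.38 FPKM against 5.19, 4.95 and 5.7. All 3 banded values lay below all 3 sham values (log2 fold change -0.46, SE 0.13, limma adjusted p = 0.023), but the call was lost without BPVB replicate 1 or 3 or sham replicate 1 or 3 (adjusted p from 0.057 to 0.078). Mx1, with 1 protein-coding gene between it and Mx2, was expressed at 0.591 ± 0.25 and 0.595 ± 0.16 FPKM, a difference of -0.02 with an interval from -0.48 to 0.44.

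The remaining genes of the group of IFIT and antiviral effectors did not pass the test. Bst2, or tetherin, which holds budding virus at the cell surface, had 101, 95.5 and 107 FPKM in the BPVB group and 115, 104 and 108 in the sham group, which overlapped (log2 difference -0.11, interval -0.22 to 0.00, limma adjusted p = 0.13). Isg20, an exonuclease, had 0.988 ± 0.18 and 0.646 ± 0.25 FPKM, and its banded values lay above its sham values although the difference of 0.40 (interval -0.04 to 0.83) did not pass. Within this group, which leaves out the IFITM genes, Isg20 alone had a difference above 0.

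**Figure D3:**
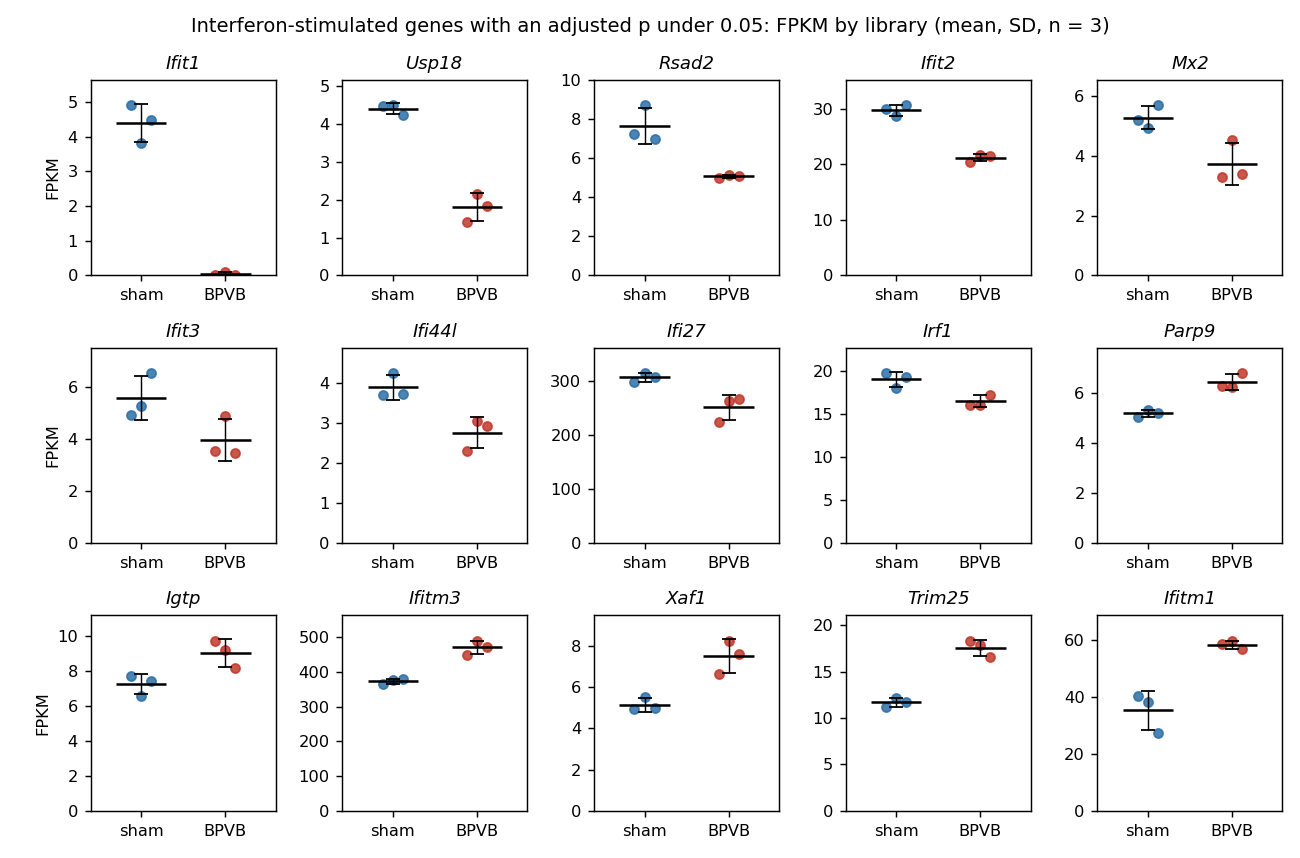
FPKM of the 15 interferon-stimulated genes with an adjusted p under 0.05 in each library (points) of the sham (blue) and BPVB (red) groups, with the mean and SD of 3 libraries as bars and each y axis starting at 0. In each of the 15 panels the points of both groups are separate, with the widest gap relative to the axis for Ifit1 and the narrowest for Ifit3, and Ifit1 is at 0 in 2 of the 3 BPVB libraries.

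The next group joined genes of the ubiquitin-like and PARP-DTX systems with Xaf1 and Rtp4, which belong to neither system. Among its 8 genes, 3 rose (37.5%, against 17.2% of all tested genes), 1 fell (12.5%, against 14.3%) and 4 did not pass, with a median log2 fold change of 0.25. Xaf1 was 1 of the 3 that rose. Usp18, the protease that removes ISG15 from its targets and also blocks signalling at IFNAR2, had 1.41, 2.16 and 1.84 FPKM in the BPVB group and 4.48, 4.5 and 4.25 in the sham group. The banded values were lower than every sham value, and the sham mean was 2.44 times the banded mean (log2 fold change -1.10, SE 0.13, limma adjusted p = 0.00028). Isg15 itself, the ubiquitin-like modifier, had 6.15 ± 1.2 and 4.91 ± 0.46 FPKM, and its difference of 0.29 (interval -0.03 to 0.60) did not pass the test. Without BPVB replicate 1, its lowest banded library, Isg15 did pass (log2 fold change 0.44, limma adjusted p = 0.018).

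Trim25, a ubiquitin ligase that modifies the RNA sensor RIG-I, had 18.3, 17.8 and 16.6 FPKM in the BPVB group and 11.2, 12.1 and 11.7 in the sham group. The groups were far apart relative to their spread (log2 fold change 0.57, SE 0.06, limma adjusted p = 0.00013). Xaf1, an antagonist of the apoptosis inhibitor XIAP, had 6.61, 8.24 and 7.62 FPKM against 4.92, 5.54 and 4.97, also without overlap (log2 fold change 0.50, SE 0.097, limma adjusted p = 0.0045). Thus Xaf1 and Rsad2, each with an ISRE-like match in its window, changed by a like amount in opposite directions. Parp9, Dtx3l and Parp14 are direct neighbours on chromosome 11, and PARP9 and DTX3L form a complex of an ADP-ribosyltransferase and a ubiquitin ligase. Parp9 rose from 5.21 ± 0.15 to 6.46 ± 0.31 FPKM (log2 fold change 0.29, SE 0.077, limma adjusted p = 0.021), a call lost without BPVB replicate 3 or sham replicate 1 or 3 (adjusted p from 0.052 to 0.072). Dtx3l, at 0.21 (interval 0.02 to 0.40, adjusted p = 0.093), and Parp14, at 0.07 (interval -0.07 to 0.20), did not pass, although their banded values all lay above their sham values. Rtp4, a chaperone-like protein of receptors, had 4.44 ± 0.63 and 3.87 ± 0.92 FPKM, and its groups overlapped.

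None of the 7 nucleic acid sensors and enzymes passed the test, and their median log2 fold change was -0.02. Over all tested genes, 17.2% were higher and 14.3% lower, so the lack of calls among 7 genes says little about them as a group. Ifih1, which encodes the RNA sensor MDA5, and Eif2ak2, which encodes the kinase PKR, had banded values above all sham values, with differences of 0.25 (interval 0.03 to 0.47, limma adjusted p = 0.08) and 0.17 (interval 0.02 to 0.33, adjusted p = 0.083). Oasl, an OAS-like protein, differed by -0.44 (SE 0.19, adjusted p = 0.12), and without sham replicate 3, its lowest sham library, it passed (adjusted p = 0.041). Oas1a and Oasl2, which belong to the family of oligoadenylate synthetases, differed by -0.13 (interval -0.51 to 0.25) and -0.14 (interval -0.44 to 0.16). Dhx58, a regulator of RNA sensing, differed by 0.11 (interval -0.29 to 0.51). Zbp1, a sensor of Z-form nucleic acids, differed by -0.02 (interval -0.46 to 0.42), and at 0 to 16 fragments a library only a large change would have been detectable. Eif2ak2 passed under TPM and under limma-voom on the fragments (adjusted p = 0.046 and 0.047).

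Of the 4 transcription factors, 1 fell (25.0%, against 14.3% of all tested genes) and 3 did not pass. Irf1, which is induced mainly by interferon-gamma, had 16.1, 16.1 and 17.3 FPKM in the BPVB group and 19.8, 18.1 and 19.3 in the sham group. The groups were separate but close (log2 fold change -0.20, SE 0.056, limma adjusted p = 0.025), and the call was lost without BPVB replicate 1 or 2 or sham replicate 1 or 3 (adjusted p from 0.072 to 0.084) and with limma-voom (0.063). Irf9, the DNA-binding subunit of ISGF3, had 8.05, 10.3 and 9.06 FPKM against 10.6, 10.2 and 11.7. The second banded library reached the sham range, and the difference of -0.24 (interval -0.45 to -0.02) did not pass (adjusted p = 0.087), whereas it passed without that library (adjusted p = 0.031) and with limma-voom (0.022). Stat2 had 13.0, 12.4 and 12.7 FPKM against 11.7, 11.8 and 10.2. Its banded values all exceeded its sham values, but the difference of 0.17 (interval 0.01 to 0.33) did not pass (adjusted p = 0.094). Irf7, the factor that amplifies interferon-alpha genes, had 6.95, 7.49 and 5.63 FPKM against 7.26, 7.74 and 7.16, with overlap (log2 difference -0.14, interval -0.38 to 0.09).

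Of the 7 IFITM and IFI genes, 2 were higher (28.6%, against 17.2% of all tested genes), 2 were lower (28.6%, against 14.3%) and 3 did not pass. Ifitm1, Ifitm2 and Ifitm3 encode membrane proteins that hinder the fusion of viruses with endosomes and lie next to each other on chromosome 1, with Ifitm1 in the middle. Ifitm1 had 58.6, 59.7 and 56.9 FPKM in the BPVB group and 40.4, 38.1 and 27.4 in the sham group. It was the member with the largest rise (log2 fold change 0.74, SE 0.12, limma adjusted p = 0.0018), and its sham values were more spread than its banded values. Ifitm3 had 449.5, 489 and 472 FPKM against 364, 375 and 378 (log2 fold change 0.33, SE 0.033, limma adjusted p = 9.4e-05), so the most abundant member was 1.26-fold higher in the banded veins with no overlap. Ifitm2 had 94.9, 90.3 and 102 FPKM against 95.5, 99.6 and 103, and its interval, -0.17 to 0.06, excluded a change of the size seen in either neighbour.

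Ifi27, a mitochondrial and nuclear-envelope protein, had 224, 262 and 266 FPKM in the BPVB group and 298, 314 and 306 in the sham group. As the second most abundant member, it moved opposite to Ifitm3 (log2 fold change -0.29, SE 0.06, limma adjusted p = 0.0058). Ifi44l had 2.31, 3.04 and 2.93 FPKM against 3.71, 4.25 and 3.72 (log2 fold change -0.43, SE 0.12, limma adjusted p = 0.023), and the call was lost without BPVB replicate 1 (0.067) or sham replicate 2 (0.079). Its direct neighbour and relative on chromosome 2, Ifi44, had 8.44 ± 0.65 and 7.51 ± 0.72 FPKM with overlap, a difference of 0.16 (interval -0.05 to 0.37). Ifi35, a partner of NMI, had 17.8 ± 3.2 and 13.7 ± 1.4 FPKM without overlap (log2 difference 0.36, adjusted p = 0.053). Its call was the most dependent on the settings among members that did not pass: without BPVB replicate 2 (adjusted p = 0.043), with the replicate number as a block (0.013), with limma-voom (0.028), under TPM (0.041) and with a mean FPKM of at least 1 (0.045) it was higher.

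The 3 interferon-inducible GTPases, which attack the vacuoles of intracellular microbes and are typical targets of interferon-gamma, all had differences above 0, and 1 passed (33.3%, against 17.2% of all tested genes that were higher). Igtp had 9.74, 9.2 and 8.2 FPKM in the BPVB group and 7.72, 6.6 and 7.45 in the sham group. The groups did not overlap (log2 fold change 0.30, SE 0.089, limma adjusted p = 0.032), but the call was lost without BPVB replicate 1 or 2 or sham replicate 2 or 3 (adjusted p from 0.06 to 0.10). Gbp5 and Gbp2 overlapped between groups, with differences of 0.21 (interval -0.03 to 0.45) and 0.11 (interval -0.07 to 0.29). The calls of Ifit1, Ifit2, Rsad2, Usp18, Ifi27, Ifitm1, Ifitm3, Trim25 and Xaf1 were kept in each of the 16 other settings.

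The rest of the pathway was described from a list of 101 further genes, both upstream genes and other induced genes, of which 87 were in the table and 82 were tested. Of these, 20 were higher (24.4%, against 17.2% of all tested genes), 13 were lower (15.9%, against 14.3%) and 49 did not pass, with a median log2 fold change of 0.04. The other induced genes made up 47 of the 82, with 8 higher (17.0%) and 9 lower (19.1%). Of 10 interferon genes listed, Ifnb1 was found, with 1 fragment in 1 sham library and none in the other 5 libraries, and it was not tested. The source of any interferon could thus not be read from these libraries. All 6 receptor chains were expressed. The signalling chains of the interferon-gamma receptor moved in opposite directions: Ifngr1, the chain that binds the ligand, had 90.0, 85.4 and 78.2 FPKM in the BPVB group and 103, 110 and 105 in the sham group (log2 fold change -0.33, SE 0.052, limma adjusted p = 0.0015). Ifngr2, the chain that carries JAK2, had 12.0, 13.1 and 13.0 FPKM against 9.07, 8.57 and 10.9 (log2 fold change 0.41, SE 0.091, limma adjusted p = 0.0089). Neither chain overlapped between groups, and per length Ifngr1 remained several times more abundant than Ifngr2 in each group.

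For the type I receptor, Ifnar1 had 24.1, 22.7 and 24.1 FPKM against 22.4, 22.2 and 22.4, and its difference of 0.08 (interval -0.02 to 0.18) did not pass. Ifnar2 had 14.2, 13.2 and 11.7 FPKM against 15.2, 17.1 and 14.9 (log2 fold change -0.27, SE 0.083, limma adjusted p = 0.039), a call lost without BPVB replicate 2 or 3 or any 1 of the sham libraries (adjusted p from 0.051 to 0.12), under TPM (0.068) and with no filter (0.061). Ifnlr1, the specific chain of the lambda receptor, had 1.5, 0.784 and 1.35 FPKM against 0.158, 0.641 and 0.455. It was low but higher in every banded library (log2 fold change 0.91, SE 0.24, limma adjusted p = 0.019), and the call was lost without BPVB replicate 1 or 3 or sham replicate 1 (adjusted p from 0.056 to 0.065). Il10rb, which the lambda receptor shares with the IL-10 receptor, had 11.7, 12.6 and 11.6 FPKM against 12.7, 12.2 and 13.5, with overlap. By gene order, Ifnar2, Il10rb, Ifnar1 and Ifngr2 are direct neighbours on chromosome 11, and their differences were -0.27, -0.09, 0.08 and 0.41.

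Of the JAK and STAT genes on the list, 3 rose (60.0%, against 17.2% of all tested genes) and none fell. Jak2, the kinase on IFNGR2, had 17.8, 18.2 and 17.0 FPKM in the BPVB group and 10.5, 11.0 and 11.5 in the sham group (log2 fold change 0.66, SE 0.059, limma adjusted p = 5.1e-05). Jak1 had 59.6, 57.8 and 57.9 FPKM against 49.7, 52.2 and 52.0 (log2 fold change 0.19, limma adjusted p = 0.0043), and Stat3, which serves mainly cytokines of the IL-6 family, had 60.7, 59.0 and 61.3 against 48.0, 49.3 and 50.2 (0.29, adjusted p = 0.00031). These 3 genes did not overlap between groups. Tyk2 had 3.41, 4.4 and 3.86 FPKM against 3.88, 4.11 and 4.03, with a difference of -0.04 (interval -0.28 to 0.20).

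**Figure D4:**
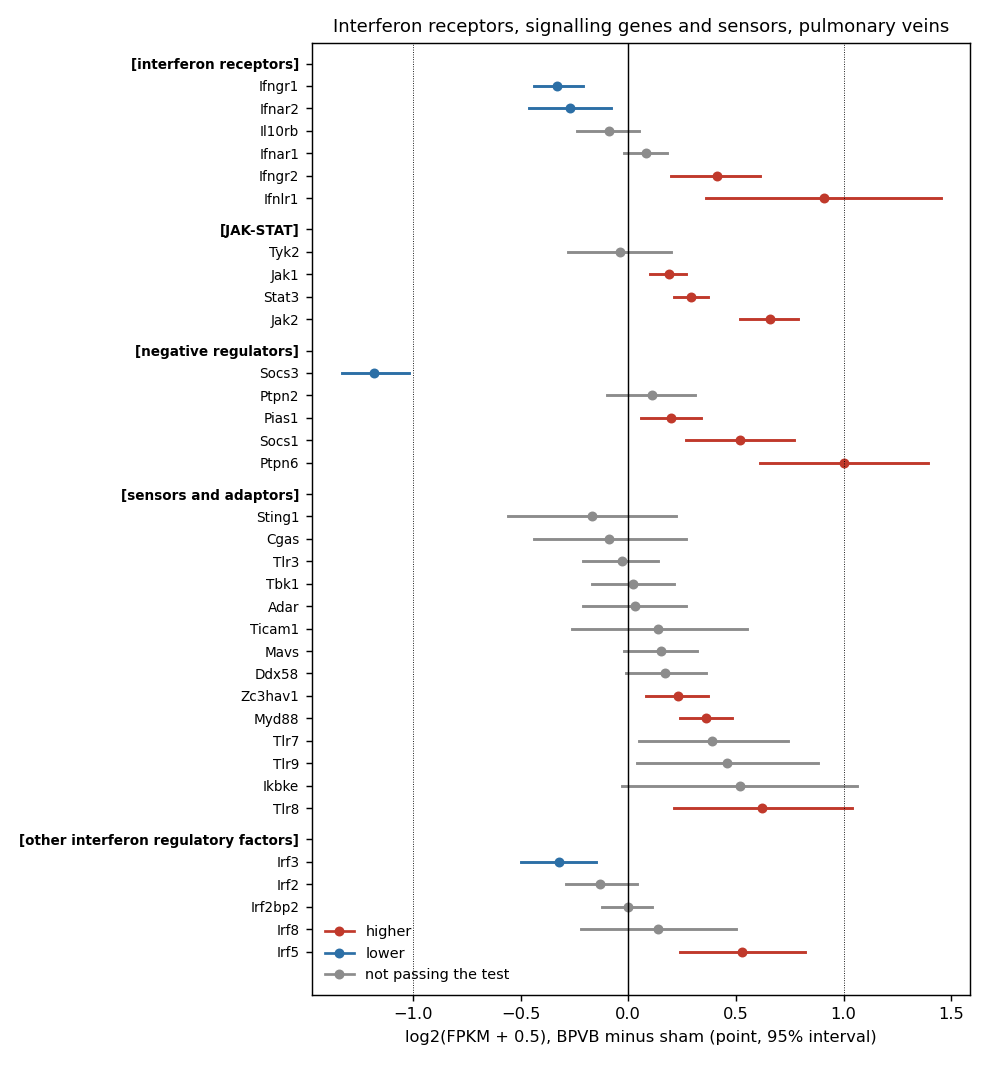
Difference in log2(FPKM + 0.5) between BPVB and sham PVs for receptors, JAK and STAT genes, negative regulators, sensors and adaptors, and further interferon regulatory factors, with the 95% interval of the fit as a bar. Red, blue and grey mark genes that were higher, lower or did not pass an adjusted p of 0.05, and the 5 negative regulators span the widest range, from Socs3 at -1.18 to Ptpn6 at 1.00.

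Among the 5 negative regulators, 3 rose (60.0%, against 17.2% of all tested genes), 1 fell (14.3% of all tested genes were lower) and Ptpn2 did not pass. Socs3, the inhibitor of gp130-type cytokine receptors that bind STAT3, had 5.53, 5.55 and 6.13 FPKM in the BPVB group and 13.6, 13.8 and 13.4 in the sham group. With a log2 fold change of -1.18 (SE 0.068, limma adjusted p = 3.2e-06) it was 1 of 3 DEGs among the 82 tested genes of the list. Over all tested genes, 3.27% were DEGs. The sham values of Socs3 varied little. Ptpn6, the phosphatase SHP-1 of blood cells, had 6.12, 5.48 and 7.28 FPKM against 2.34, 3.92 and 2.57 (log2 fold change 1.00, adjusted p = 0.0023). Socs1, the main inhibitor of interferon receptors, rose from 2.92 ± 0.021 to 4.43 ± 0.62 FPKM (log2 fold change 0.52, limma adjusted p = 0.0069, and 0.066 with limma-voom). Pias1, an inhibitor of STAT factors, rose from 8.18 ± 0.093 to 9.47 ± 0.11 FPKM (log2 fold change 0.20, limma adjusted p = 0.034), a call lost without any 1 of the 6 libraries (adjusted p from 0.069 to 0.09), with median-of-ratios scaling (0.054), with quantile normalization (0.064) and with the replicate number as a block (0.07). Thus Usp18 and Socs3 were lower and Socs1 higher in the same veins.

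The other listed genes with the largest changes were chemokines, oligoadenylate synthetases, GTPases and single genes of other kinds. Cxcl9, a T-cell chemokine induced by interferon-gamma, had 4.4, 2.77 and 2.98 FPKM in the BPVB group and 8.05, 7.78 and 8.49 in the sham group (log2 fold change -1.17, SE 0.15, limma adjusted p = 0.00035). Ccl5, a chemokine of T cells and macrophages, moved the other way, with 8.63, 5.93 and 7.69 FPKM against 3.7, 2.47 and 4.5 (0.98, adjusted p = 0.005). Cxcl9 and Ccl5 thus each separated the groups, in opposite directions. Oas1k had 1.55, 2.06 and 1.25 FPKM against 3.76, 3.76 and 3.92 (-1.04, adjusted p = 0.00064). Its relative Oas1i in the same gene cluster on chromosome 12 had 1.86, 0.787 and 1.67 FPKM against 0.767, 0.559 and 0.622 (0.71, adjusted p = 0.041), a call lost without BPVB replicate 1 or 3 or any 1 of the sham libraries (adjusted p from 0.065 to 0.13), with no filter (0.068), with quantile normalization (0.07) and with limma-voom (0.062). In that cluster, as in those of the IFIT and IFITM genes, some neighbours passed the test and others, Oas1a among them, did not.

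Ifi47, an interferon-gamma GTPase, had 7.76, 8.1 and 6.77 FPKM in the BPVB group and 4.62, 3.67 and 4.61 in the sham group (log2 fold change 0.75, limma adjusted p = 0.00095). Gbp6, of the guanylate-binding proteins, had 2.15, 2.46 and 2.32 against 4.72, 3.06 and 4.03 (-0.64, adjusted p = 0.0094), so interferon-inducible GTPases were also found on both sides. Tor3a, an ATPase of the endoplasmic reticulum, fell from 5.22 ± 0.19 to 3.08 ± 0.17 FPKM (-0.68, adjusted p = 0.00047). Tlr8, an RNA sensor of myeloid endosomes, had 1.44 ± 0.31 and 0.764 ± 0.26 FPKM (0.62, adjusted p = 0.03), a call lost without BPVB replicate 2 or 3 or sham replicate 1 or 3 (adjusted p from 0.064 to 0.099) and with quantile normalization (0.061). The enzymes that attach ISG15 were looked at after their values were seen. Uba7, the activating enzyme, fell from 3.44 ± 0.30 to 2.13 ± 0.26 FPKM (-0.59, adjusted p = 0.0051), and Ube2l6, the conjugating enzyme, rose from 4.33 ± 0.77 to 6.71 ± 0.30 FPKM (0.59, adjusted p = 0.0056). Herc6, the ISG15 ligase of rodents, fell from 2.22 ± 0.33 to 1.52 ± 0.07 FPKM (-0.42, adjusted p = 0.029), a call lost without any 1 of the BPVB libraries, without sham replicate 1 or with the replicate number as a block (adjusted p from 0.052 to 0.097).

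Cell type markers also differed between the groups. Over all tested genes, 17.2% were higher and 14.3% lower, and the counts of markers below are to be set beside these shares. Summed FPKM of 9 macrophage markers found were 692 to 714 in the BPVB group and 234 to 246 in the sham group, and all 9 were higher. Most of that sum was Lyz2, which alveolar epithelium also expresses, and without it the sums were 110.2 to 118 against 75.1 to 79. Marker sums of lung epithelium were 583 to 626 against 126 to 132 (7 of 8 tested higher, 1 lower), and those of neutrophils were 6.83 to 10.4 against 21.8 to 24.6 (4 of 7 lower). Sums for fibroblasts were 6299 to 6349 against 5526 to 5562 (4 of 7 higher, 2 lower), and those for endothelial cells 1181 to 1201 against 1323 to 1333 (5 of 9 lower). Sums for smooth muscle were 4378 to 4419 against 4578 to 4646 (1 of 6 higher, 4 lower), and those for cardiomyocytes, which form the muscular sleeve of rat PVs, 10272 to 10384 against 13202 to 13488 (2 of 7 higher, 5 lower). Such sums weight the most abundant markers. Plasmacytoid dendritic cells, known as strong producers of type I interferon, had sums of 120.5 to 132 against 135 to 144 (1 of 5 tested lower), most of it Bst2, and their defining marker Siglech was under the filter. Conventional dendritic cells had 7.01 to 7.69 against 5.88 to 6.55 (2 of 4 higher), T and NK cells 12.2 to 15.7 against 9.8 to 10.1 (2 of 9 higher), and B and plasma cells 3.8 to 4.47 against 2.65 to 4.2 (1 of 6 higher). The shares higher among T and NK markers (22.2%) and B and plasma cell markers (16.7%) were near that of all tested genes. Without Cd4, which rat macrophages also express, the T and NK cell sums overlapped, at 4.17 to 6.95 against 4.53 to 5.5. The share that these differences in cell markers have in the changes of the interferon-stimulated genes was not tested.

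The libraries held 23324220 to 29583436 fragments on listed genes, and the mean total was 1.16 times higher in the BPVB group. The rats were separate animals, and the squared differences between libraries of a group were, at the median gene, 4.99 to 5.5 times those of sampling noise alone.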

How the data were processed

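Total RNA from the PVs of 3 BPVB and 3 sham-operated rats was sequenced as paired-end reads, with groups taken from the sample labels. The columns of the deposited table carry an initial and a number (P or S), which were matched to the labels PVS and Sham, and the series' design text abbreviates the surgery as PAB whereas the labels name pulmonary vein banding. The study's methods name fastp, HISAT and HTSeq-count, whereas the submitters' processing notes name HISAT2 2.0.5, StringTie 1.3.3b, featureCounts 1.5.0-p3 and DESeq2 1.20.0. Likewise, the methods name the VAHTS Universal V6 kit and the labels the NEBNext Ultra kit. The genome build, annotation version and strand setting are not given in the sources used here, so antisense and overlapping genes could not be told apart. The authors deposited FPKM, 1 value per gene and rat, and of the per-sample columns 0 were not used.

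The fragments behind the FPKM were recovered from whole-number ratios of a gene's values between libraries, which came out whole for 100.0% of genes (relative tolerance 1e-09). On simulated tables, 98.4% of genes with at least 50 fragments were recovered with the right fragments. The fragments served for depth, for the ratio of Ifit1 and for limma-voom as an alternative. Exact intervals cover counting error only, since fragments need not be independent molecules.

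The groups were compared with limma 3.58.1 in R 4.3.3 (lmFit, eBayes with a trend) on log2(FPKM + 0.5) over all genes whose mean FPKM was 0.1 or more, two-sided, with Benjamini-Hochberg adjustment. A fold change on this scale understates that of low genes. DESeq2 was not run. The deposited values are FPKM, and of the methods for counts only limma-voom was run, on the recovered fragments. For single values, an exact permutation of 3 against 3 libraries cannot give a p under 0.1, and none was used. Tables, motif searches and plots used Python 3.11.15 with numpy 2.4.6, pandas 2.3.3, scipy 1.17.1 and matplotlib 3.10.9. Promoter windows and gene order came from RefSeq (GRCr8), matched by gene number for all 125 listed genes found.

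The members and the lists (interferon pathway, cell type markers) were chosen with earlier results of these data known. Values in every library were to be given for the 12 members with the largest absolute log2 fold change among those that passed, for the 4 transcription factors, for members with a mean FPKM of at least 50, for receptors and JAK and STAT genes, and for at most 10 other pathway genes with the largest changes. Windows were printed for the 2 lower and 2 higher members with the largest changes among those with an ISRE-like match. The pathway counts include 1 gene that is not reported here by name. The alternatives were pseudocounts of 1 and 0.1, no filter or a mean FPKM of at least 1, median-of-ratios scaling, TPM, quantile normalization, a replicate block, robust eBayes, limma-voom, and leaving out each library in turn.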

Additional observations from a re-analysis of the deposited data

How the results depend on the processing

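Across the 10 settings that kept all 6 libraries, 6 to 8 members were higher and 8 or 9 were lower, against 6 and 9 as reported. Leaving out 1 library at a time gave 4 to 6 higher and 5 to 9 lower members, with the fewest lower ones without BPVB replicate 1 (5), and 1 or 2 member DEGs, with 1 in that same setting. A pseudocount of 1 also left 1 member DEG. In both settings that was Ifit1, while the log2 fold change of Usp18 was -0.98 and -0.96. For the pathway list, leaving out 1 library gave 13 to 18 higher genes against 20, with 13 without sham replicate 1, and 11 to 13 lower genes. Over all tested genes, the calls also fell whichever library was left out, from 2605 higher to 2163 to 2232 and from 2170 lower to 1748 to 1901. A call lost in this way thus need not rest on the library left out. No member that passed the test changed sign. Besides the losses without single libraries, Ifit3 did not pass with no filter on low values (adjusted p = 0.078), under TPM (0.053) or with the block (0.055). Over all genes, the reported 496 DEGs became 325 with a pseudocount of 1, 901 with one of 0.1 and 1132 with limma-voom, while the share of calls that were higher, 54.6%, ranged from 49.0% with median-of-ratios scaling to 61.4% under TPM.

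The replicate numbers did not pair the samples: deviations of same-numbered libraries from their group means had correlations of 0.03, 0.01 and 0.02. With the replicate number as a block, 7 members were higher, 8 lower and 2 DEGs, and 19 and 13 pathway genes were higher and lower. With 3 rats per group and 0 to 16 fragments a library for Zbp1, small changes in the least abundant members were not detectable at this depth, and groups of 3 are too small for the search for outlying samples.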

Other observations

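The deposited GO annotation names further genes of the antiviral response. Of 92 genes of the term defense response to virus that are on neither list, 82 were tested, of which 17 were higher (20.7%, against 17.2% of all tested genes), 6 were lower (7.32%, against 14.3%) and 59 did not pass, with a median log2 fold change of 0.09. The examples below were chosen after their values were seen. Ptprc, which encodes the leukocyte surface phosphatase CD45, had 6.12, 5.59 and 5.52 FPKM in the BPVB group and 2.49, 2.78 and 2.21 in the sham group (log2 fold change 1.06, limma adjusted p = 8.4e-05). Spon2, a secreted matrix protein, had 6.89, 6.79 and 7.45 FPKM against 2.85, 3.16 and 3.13 (1.09, adjusted p = 2.4e-05). In both genes every banded value was more than any sham value. Serinc5, a membrane protein that lowers the infectivity of retroviruses, had 23.1, 23.9 and 23.4 FPKM against 32.3, 32.5 and 32.1 (-0.45, adjusted p = 4.6e-05), again without overlap but in the opposite direction.

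The same annotation has interferon terms. For cellular response to interferon-gamma, 35 of 86 tested genes outside both lists were higher (40.7%, against 17.2% of all tested genes) and 11 lower (12.8%, against 14.3%), and their median log2 fold change was 0.17, against 0.02 over all tested genes. For cellular response to interferon-beta, 4 of 15 were higher (26.7%) and 1 was lower (6.67%), and the median was 0.14. Neither count was tested against other genes. Summed macrophage markers were 2.95 times higher in the BPVB group (1.5 times without Lyz2) and those of lung epithelium 4.72 times higher, and their part in these counts was not tested.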
